A study of Mus musculus with 6 samples.

Results

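The genes described here encode the enzymes that build, interconvert and recycle purine and pyrimidine nucleotides. They were taken by symbol from a list of 39 names, all of which were found among the 24956 rows of the expression table. RNA was sequenced from organoids, three-dimensional cultures of mouse gut epithelial cells, that carried the Apc Min genotype in every library. Min is a truncating allele of Apc, whose protein restrains Wnt signalling, and mice with it develop intestinal adenomas. Control medium is represented by 3 libraries and low glutamine medium by 3. How much glutamine each medium held, how long it was applied and which animals the cultures came from is not given in the labels. The design text calls the libraries of a group biological replicates, but nothing states that they came from separate animals, so a p-value here reflects only how these samples vary. The comparison asks how transcripts for nucleotide synthesis differ when the medium holds less of the amino acid that feeds several of its reactions.

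Cells make purines by building the ring stepwise on phosphoribosyl pyrophosphate (PRPP), ending at inosine monophosphate (IMP), from which AMP and GMP are made. Pyrimidines are made as a ring first, joined to PRPP to give UMP, and CTP is then formed from UTP. Glutamine donates its amide nitrogen to the reactions catalysed by Ppat, Pfas, Gmps, Cad, Ctps and Ctps2. Salvage enzymes recover free bases and nucleosides, and ribonucleotide reductase with thymidylate synthase supplies the building blocks of DNA.

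Values are reads scaled to transcript length and library depth (RPKM), as the authors deposited them. Depths estimated from the lowest values were 24.3 to 35.3 M (mega) reads for control libraries and 28.2 to 33.9 M for low glutamine libraries. A 1 kilobase transcript at 1 RPKM thus rested on about 24.3 to 35.3 reads. A sex-linked difference ran between the groups. The RNA that coats the inactive X chromosome, Xist, averaged 87.3 RPKM in control and 0.0286 RPKM in low glutamine libraries. Eif2s3y, a Y-linked gene, was at 0 in the 3 control libraries, and low glutamine libraries 1 to 3 held 26.6, 25.2 and 31.4 RPKM of it. The medium and the source of this difference cannot be told apart for any gene below. Among the members, Prps1, Prps2, Hprt and Ctps2 lie on the X chromosome. Of 8 epithelial markers, 4 rose and 4 fell, and their summed level was 2161 to 2365 RPKM in control and 2648 to 2732 RPKM in low glutamine libraries. Markers of other cells were near 0. The 10 stromal markers summed to 0.326 to 0.410 RPKM in control and 0.174 to 0.256 RPKM in low glutamine libraries, with Col3a1 and Lum at 0 throughout. The 9 immune markers summed to 0.465 to 0.679 and 0.227 to 0.559 RPKM, with Adgre1 at 0. The 4 endothelial markers summed to 0.153 to 0.197 and 0.263 to 0.435 RPKM, with Emcn at 0. In these bulk libraries, fewer cells of a type and less RNA per cell cannot be told apart.

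More nucleotide synthesis genes rose than fell in low glutamine medium, and 3 of the 6 that fell were nucleotide kinases. Of 37 members with a mean of at least 1 RPKM, 21 rose and 6 fell (limma, adjusted p under 0.05), and 10 did not pass. Among all 11082 genes tested, 66.4% passed in either direction, 36.1% rising and 30.3% falling, so a passing member is in itself common in this comparison. The median difference over the members was 0.17 on the log2(RPKM + 1) scale, against 0.03 over all genes tested. Members ranged from -0.88 for Ak4 to 0.92 for Tk2. The libraries of the groups did not overlap for 25 members on the higher and 6 on the lower side, where 38.9% and 31.3% of all genes tested did so (70.2% in either direction). Without the X-linked members, 18 of 33 rose and 6 fell. Adssl1 and Ak1 were below the limit of 1 RPKM and were not tested. The rising counts depended on scaling: the control columns summed to 362217 to 370158 RPKM and the low glutamine columns to 327956 to 347248 RPKM. Rescaling all columns to a common sum moved the median of all genes from 0.03 to 0.15. Of 38 members then tested, 30 were higher and 3 lower, with 51.3% of all genes higher and 22.9% lower. The added member, Ak1, counted as higher. It passed the limit only through its low glutamine libraries (means before rescaling 0.252 RPKM in control and 1.72 RPKM in low glutamine libraries). Rn45s, the ribosomal RNA precursor, was at 1898, 2074 and 6680 RPKM in control libraries and 9778, 12252 and 6788 RPKM in low glutamine libraries. A common sum without Rn45s gave 31 of 38 members higher, again with Ak1, and 3 lower.

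**Figure D1:**
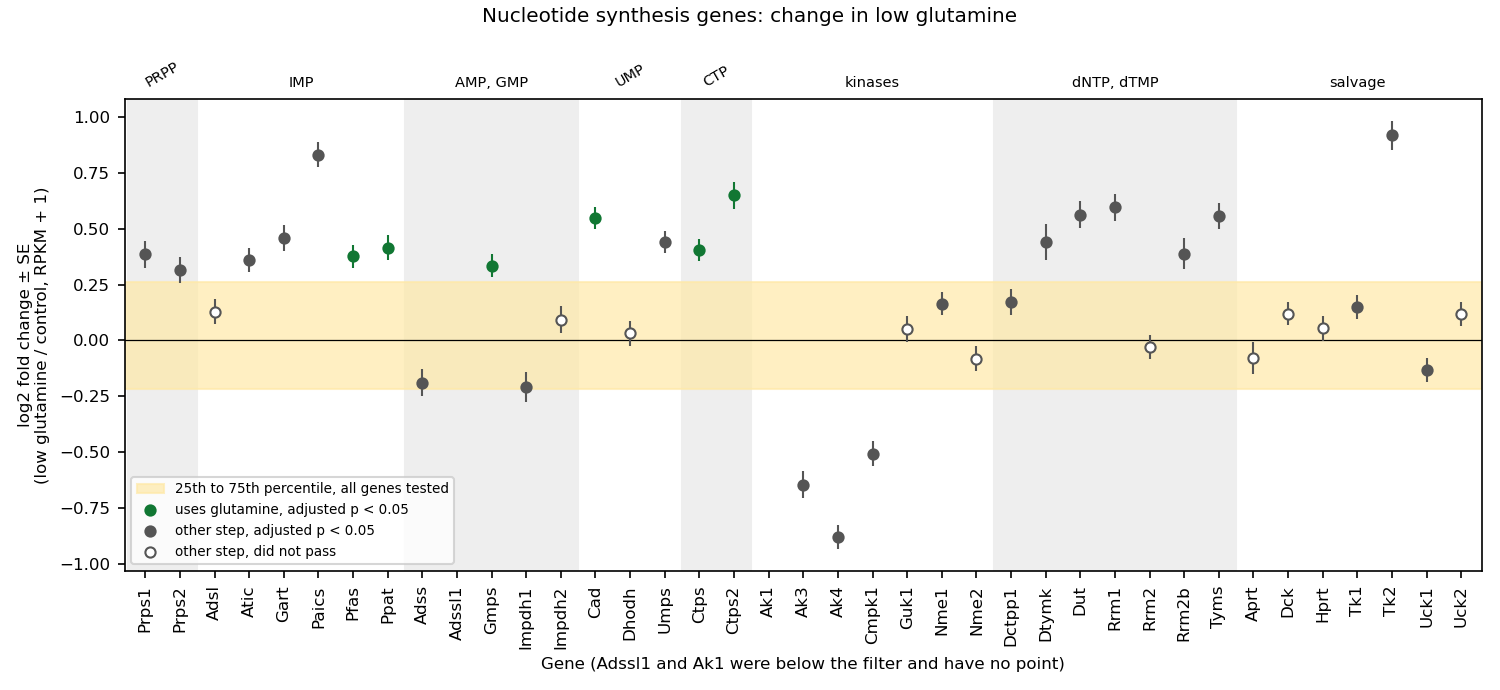
Difference between low glutamine and control medium for each member, as log2 fold change of RPKM + 1 with its standard error (vertical axis), grouped by pathway step (horizontal axis). Filled points passed the limma test, green points use glutamine, and the yellow band holds the 25th to 75th percentile of all genes tested (-0.22 to 0.26). All 6 green points lie above the band, and Ak3, Ak4 and Cmpk1 lie well below it.

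All 6 glutamine-using steps rose in low glutamine medium, by 0.33 to 0.65 on the log2(RPKM + 1) scale, with a median of 0.41. Of the other members, 15 of 31 rose, 6 fell and 10 did not pass, with a median of 0.13. They differed by step, with medians of 0.35 for PRPP synthesis and 0.44 for deoxynucleotide and thymidylate synthesis. The medians were 0.12 for salvage and -0.29 for nucleotide kinases. On the routes to IMP and UMP, Paics, Gart, Umps and Atic rose by 0.36 to 0.83 without using glutamine, and Adsl and Dhodh did not pass. Among all genes tested, 36.1% rose and 30.3% fell. In RPKM, the low glutamine means of the glutamine-using genes were 27.7% to 76.5% above the control means. No library of one group reached the range of the other, which on the higher side held for 38.9% of all genes tested.

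Ppat, the amidotransferase that commits PRPP to purine synthesis, measured 13.4, 13.2 and 13.7 RPKM in control libraries 1 to 3, against 18.1, 17.2 and 19.6 RPKM in low glutamine libraries 1 to 3, the order used below. The lowest low glutamine library lay above every control library, and the difference was 0.41 ± 0.06 (SE; log2, limma adjusted p = 4e-05). Pfas, which adds the next glutamine nitrogen to the growing purine ring, measured 7.31, 7.06 and 6.90 RPKM in control libraries and 9.47, 9.84 and 9.18 RPKM under low glutamine. Its difference was 0.38 ± 0.05 (limma adjusted p = 4.1e-05). Gmps, which aminates XMP to GMP, was nearly constant in control medium at 16.6, 16.6 and 16.7 RPKM and stood at 20.5, 20.9 and 22.5 RPKM in low glutamine medium. With 0.33 ± 0.05 (limma adjusted p = 0.00012) it had the smallest difference of the 6.

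Cad and Ctps2, both pyrimidine genes, had the largest differences of the 6. Cad, the trifunctional protein whose first activity makes carbamoyl phosphate from glutamine, measured 8.23, 8.09 and 7.83 RPKM in the control libraries, with 12.3, 11.9 and 12.6 RPKM under low glutamine. No low glutamine library came near the control range, and the difference was 0.55 ± 0.05 (limma adjusted p = 1.1e-06). Ctps, a CTP synthase, measured 10.8, 11.2 and 11.3 RPKM in control libraries, against 15.1, 14.6 and 15.3 RPKM with low glutamine (0.40 ± 0.05, limma adjusted p = 1.5e-05). Ctps2, its X-linked isozyme, was the least abundant of the 6 per length, at 2.95, 2.72 and 2.99 RPKM in control libraries and 5.01, 4.77 and 5.50 RPKM under low glutamine. Its difference was 0.65 ± 0.06 (limma adjusted p = 1.6e-06). Of all 320 X-linked genes tested, 44.4% rose and 25.6% fell.

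**Figure D2:**
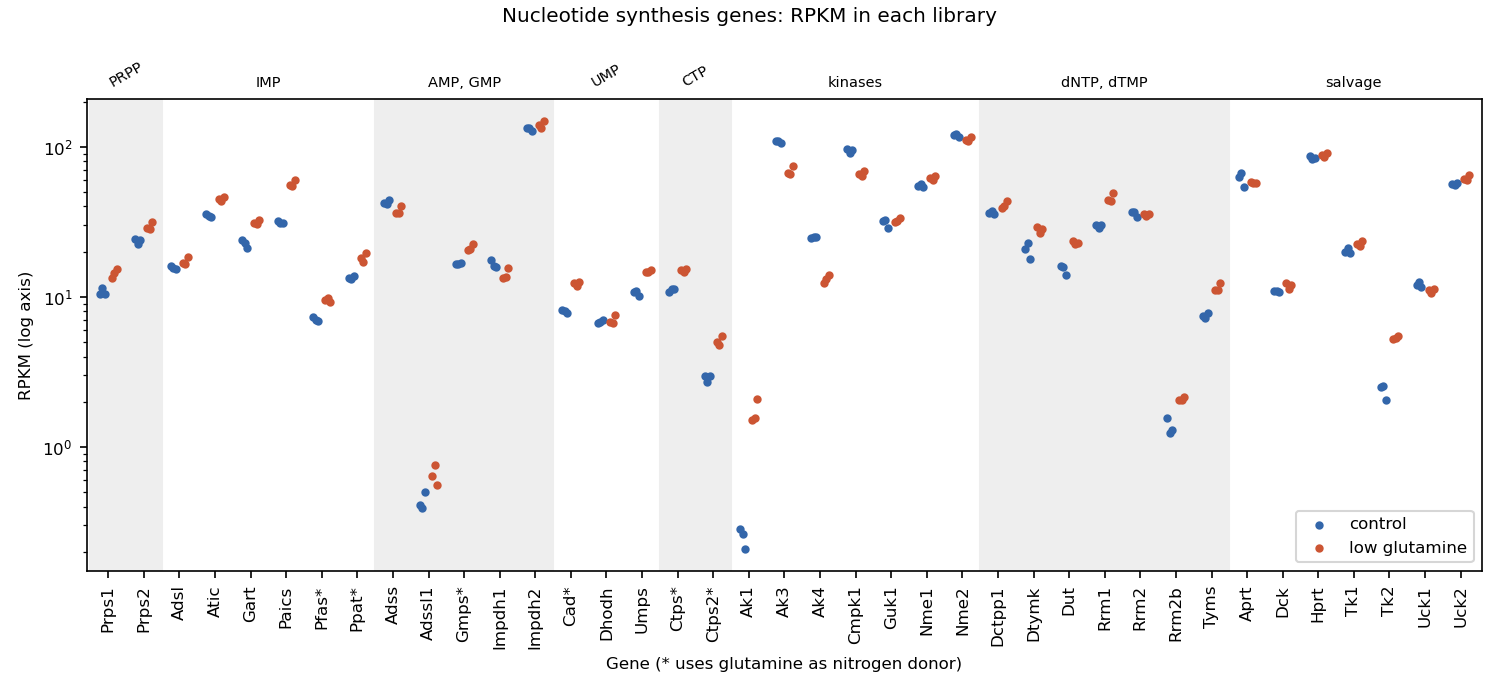
RPKM of all 39 members in each library (vertical axis, log scale), grouped by pathway step along the horizontal axis, with 1 point per library and asterisks on the glutamine-using genes. Control and low glutamine points separate for the 6 glutamine-using genes and for Paics, Ak3, Ak4 and Tk2, while those of Rrm2, Guk1, Nme2 and Hprt intermingle.

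Both PRPP synthetases, which make the sugar phosphate shared by all the routes, rose. Prps1 measured 10.5, 11.5 and 10.5 RPKM in the control libraries, with 13.4, 14.4 and 15.4 RPKM under low glutamine (0.38 ± 0.06, limma adjusted p = 0.00014). Prps2 measured 24.22, 22.52 and 23.98 RPKM in control libraries, against 28.7, 28.3 and 31.7 RPKM with low glutamine (0.31 ± 0.06, limma adjusted p = 0.00047). Neither gene's groups overlapped. Both are X-linked, and 10.1% of the 50-base stretches of Prps1 transcripts also occur in Prps1l3, so reads of that pair may be divided. The proteins that associate with the synthetases split: Prpsap1 fell from 34.19 to 23.96 RPKM (-0.50, limma adjusted p = 1.6e-05), while Prpsap2 rose from 9.88 to 14.3 RPKM (0.49, limma adjusted p = 3.2e-06).

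On the way from PRPP to IMP, 5 of 6 genes rose, against 36.1% of all genes tested, and the remaining 1, Adsl, did not pass. Paics, a bifunctional enzyme of the middle steps, measured 32.1, 31.2 and 31.2 RPKM in control libraries and 55.5, 54.7 and 60.4 RPKM under low glutamine. At 0.83 ± 0.06 (limma adjusted p = 5.4e-08) it had the largest difference of the route, and its low glutamine mean was 80.5% above the control mean. Gart, a trifunctional enzyme that includes a folate-dependent formyl transfer, measured 23.8, 23.0 and 21.2 RPKM in the control libraries, with 31.2, 30.5 and 32.7 RPKM under low glutamine (0.46 ± 0.06, limma adjusted p = 1.8e-05). Atic, which adds the last formyl group and closes the ring, measured 35.9, 34.5 and 33.8 RPKM in control libraries, against 44.7, 43.2 and 46.4 RPKM with low glutamine (0.36 ± 0.05, limma adjusted p = 7.8e-05). The groups did not overlap for any of these genes. Adsl, the lyase that acts both on this route and in AMP synthesis, averaged 15.7 RPKM in control and 17.3 RPKM in low glutamine medium (0.13, limma adjusted p = 0.061). An antisense gene, Gm15964, covers 676 of the 3988 exonic bases of Gart on the other strand, and whether the counting used strand was not stated.

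Ppat and Paics are neighbours on chromosome 5 and are transcribed away from a shared region. On GRCm38.p6 (mm10, RefSeq), Ppat spans chr5:76913249-76951578 on the minus strand and Paics spans chr5:76951302-76967509 on the plus strand. Their exons overlap over 272 bases, which is 6.8% of the exonic bases of Ppat and 10.9% of those of Paics, so counting without strand could assign some reads to the wrong gene. Both rose, by 0.41 and 0.83. Gart has a head-to-head neighbour too, Son, whose mean went from 33.6 to 39.1 RPKM (0.21, limma adjusted p = 0.0028). Tk1 and its head-to-head neighbour Afmid moved in opposite directions, Tk1 by 0.15 and Afmid, from 1.94 to 1.45 RPKM, by -0.27 (limma adjusted p = 0.0093).

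Promoter windows of 300 bases, 250 before to 50 after a start site, were taken from RefSeq (GRCm38.p6) for 36 of the 39 members, 50 windows in all because some genes have several starts. Dhodh, Pfas and Rrm2b were not matched. Searched on both strands, the E-box CACGTG, the palindrome bound by Myc and related factors, was present in 8 of 50 member windows (16%), against 7.15% of 32851 windows of all genes and 7.84% of 21263 protein-coding windows. The member windows were richer in G and C, with a median of 61.2% against 56.3% for protein-coding windows. The E-box matches are shown because they fall in genes with each of the calls: rising, falling and not passing. Each is given 5′ to 3′ on the strand of its gene with the motif in capitals. Positions count from the start site of the window, which in genes with several starts need not be the gene's outermost end.
Paics (chr5:76951089-76951114, plus strand, motif beginning 203 bases upstream): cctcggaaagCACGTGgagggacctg
Atic (chr1:71557139-71557164, plus strand, 7 bases upstream): acctcggggtCACGTGgggtcgacac
Tyms (chr5:30073671-30073696, minus strand, 61 bases upstream): ccacttctgtCACGTGggggcggggt
Dtymk (chr1:93802067-93802092, minus strand, 148 bases upstream): ctcgaacttcCACGTGaccagagcct
Nme1 (chr11:93968275-93968300, minus strand, 18 bases upstream): tgcggggaacCACGTGaggccgggga
Nme1, another start (chr11:93968039-93968064, minus strand, 29 bases upstream): cttgatacgcCACGTGggctcgcctt
Impdh2 (chr9:108560316-108560341, plus strand, 110 bases upstream): gctcgataagCACGTGgttacccagc
Ak4 (chr4:101419479-101419504, plus strand, 214 bases upstream): ccactctgccCACGTGcggggaccgg
Of these 7 genes, Paics, Atic, Tyms, Dtymk and Nme1 rose, Impdh2 did not pass and Ak4 fell.

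Matches to E2F-type motifs (TTTCCCGC, TTTCGCGC, TTTGGCGC or TTTGCCGC), the sites of factors that drive S phase genes, were found in 2 of 50 member windows (4%), against 2.26% of all and 2.85% of protein-coding windows. They are all shown, and lie at the first committed purine gene and at a PRPP synthetase. Both genes rose, as did 21 of the 37 tested members. The motif is again in capitals and reads in either direction.
Ppat (chr5:76951772-76951799, minus strand, 211 bases upstream): agcagaccgcGCGGGAAAaaagggcagt
Ppat (chr5:76951719-76951746, minus strand, 158 bases upstream): ggatcagaggGCGGGAAAgggaggtgca
Prps2 (chrX:167382700-167382726, minus strand, within the 50 bases after the start): gctgctgcgtTTTCCCGCttcaccagc
The amino acid response element TGATGNAA, the composite site bound by Atf4, was present in 1 of 50 member windows (2%), against 3.97% of all windows. That window is the one of Prps1 (chrX:140456423-140456450, plus strand, 170 bases upstream): gctatctttgTGATGTAAaaagtgcttt
The CCAAT box, CCAAT, was in 15 windows (30%), against 37.4% of all windows. A match is a description of the letters and does not show binding.

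At the branch from IMP, only Gmps among the tested genes rose. Adss, which starts the AMP branch, fell from 42.6 to 37.3 RPKM (-0.19, limma adjusted p = 0.013). Impdh1, an isozyme of the dehydrogenase that starts the GMP branch, fell from 16.5 to 14.2 RPKM (-0.21, limma adjusted p = 0.016). Neither call held after rescaling to a common sum (-0.06 for Adss and -0.09 for Impdh1, limma adjusted p = 0.22 and 0.17) or without low glutamine replicate 1 (limma adjusted p = 0.071 and 0.07) or 2 (0.052 and 0.059), and that of Impdh1 was also lost without control replicate 1 (0.076). Impdh2, the isozyme with the higher level per length, averaged 132 RPKM in control and 141 RPKM in low glutamine medium and did not pass (0.09, limma adjusted p = 0.19). In 3 of 17 alternatives Impdh2 was called higher. Its value is uncertain, since 67.6% of its 50-base stretches also occur in the pseudogene Impdh2-ps. Adssl1, the isozyme of Adss known from muscle, was low at 0.436 and 0.652 RPKM and was not tested.

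In the pyrimidine route to UMP, Umps rose beside Cad. Umps, the bifunctional enzyme that joins orotate to PRPP and forms UMP, measured 10.8, 10.9 and 10.2 RPKM in control libraries and 14.7, 14.6 and 15.0 RPKM under low glutamine (0.44 ± 0.05, limma adjusted p = 8e-06). The groups were clearly apart. Dhodh, the mitochondrial dehydrogenase between them, averaged 6.84 RPKM in control and 7.02 RPKM in low glutamine medium, with overlapping groups (0.03, limma adjusted p = 0.65). Of the 9 genes that lead to IMP and UMP, 7 rose and none fell, against 36.1% and 30.3% of all genes tested. Adsl and Dhodh did not pass.

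The nucleotide kinases, which phosphorylate monophosphates and diphosphates, were the step with the most falling members: 3 of 6 tested fell and 1 rose. The shares over all genes tested were 30.3% falling and 36.1% rising. Ak4, a mitochondrial adenylate kinase, measured 24.7, 25.1 and 25.2 RPKM in the control libraries, with 12.4, 13.1 and 13.9 RPKM under low glutamine. Its 3 control libraries were close together, and the difference was -0.88 ± 0.05 (limma adjusted p = 2.7e-08). Ak3, the GTP:AMP phosphotransferase of the mitochondrial matrix, measured 109, 110 and 106 RPKM in control libraries, against 66.6, 65.8 and 74.5 RPKM with low glutamine (-0.64 ± 0.06, limma adjusted p = 1.4e-06). Cmpk1, which phosphorylates CMP and UMP in the cytosol, measured 97.2, 91.5 and 94.9 RPKM in control libraries and 65.7, 64.0 and 69.2 RPKM under low glutamine (-0.51 ± 0.06, limma adjusted p = 5.7e-06). All 3 low glutamine libraries lay below all 3 control libraries for each of these genes. Some transcript sequence is shared: 10.8% of the 50-base stretches of Ak4 occur in Ak3l2-ps and 20.1% of those of Ak3 in overlapping genes, among them Cdc37l1.

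Ak1, the cytosolic adenylate kinase, went the other way at a low level, with 0.284, 0.263 and 0.208 RPKM in the control libraries and 1.503, 1.566 and 2.08 RPKM under low glutamine. It missed the limit on the mean, and a fit without that limit gave a higher value in low glutamine medium (1.11, limma adjusted p = 0.00017). Nme1, a nucleoside diphosphate kinase, rose from 55.2 to 62.0 RPKM (0.16, limma adjusted p = 0.015), a call lost without control replicate 1 or low glutamine replicate 1 (limma adjusted p = 0.059 and 0.074). Nme2, its neighbour on chromosome 11, averaged 119 RPKM in control and 112 RPKM in low glutamine medium and did not pass (-0.08, limma adjusted p = 0.21). It was called higher after a common sum without Rn45s (0.07, limma adjusted p = 0.044) and by quantile normalization (0.14, limma adjusted p = 0.0041). The readthrough gene Gm20390 covers 48.9% of the exonic bases of Nme2 and 12.9% of those of Nme1, so the split between them is uncertain. Guk1, the guanylate kinase, averaged 31.1 and 32.2 RPKM and did not pass (0.05, limma adjusted p = 0.46).

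Of 7 genes for deoxynucleotide and thymidylate synthesis, 6 rose, against 36.1% of all genes tested. Rrm1, the large subunit of ribonucleotide reductase, measured 30.3, 28.8 and 30.3 RPKM in control libraries, against 44.0, 43.5 and 49.2 RPKM with low glutamine (0.59 ± 0.06, limma adjusted p = 2.4e-06). Rrm2, the small subunit that pairs with it in S phase, did not pass: it averaged 36.0 RPKM in control and 35.2 RPKM in low glutamine medium with overlapping groups (-0.03, limma adjusted p = 0.65). It was called higher after rescaling to a common sum (0.09, limma adjusted p = 0.042), to a common sum without Rn45s (0.12, limma adjusted p = 0.012) and by quantile normalization (0.10, limma adjusted p = 0.03). Rrm2b, the small subunit induced by p53, measured 1.55, 1.23 and 1.29 RPKM in control libraries and 2.04, 2.05 and 2.15 RPKM under low glutamine (0.39 ± 0.07, limma adjusted p = 0.00031). Per length it stayed far below Rrm2.

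The thymidylate enzymes rose together. Tyms, which methylates dUMP to dTMP, measured 7.46, 7.24 and 7.80 RPKM in the control libraries, with 11.1, 11.1 and 12.3 RPKM under low glutamine (0.56 ± 0.06, limma adjusted p = 2.6e-06). Dut, which supplies dUMP by cleaving dUTP, measured 16.1, 15.7 and 13.9 RPKM in control libraries, against 23.4, 22.6 and 23.0 RPKM with low glutamine (0.56 ± 0.06, limma adjusted p = 4.1e-06). Their groups did not overlap. Dtymk, the thymidylate kinase, was more spread in control medium, at 20.7, 23.0 and 17.7 RPKM, and measured 29.0, 26.7 and 28.3 RPKM in low glutamine medium (0.44 ± 0.08, limma adjusted p = 0.00037). Dctpp1, a pyrophosphatase that trims the dCTP pool, rose from 36.3 to 41.1 RPKM (0.17, limma adjusted p = 0.018), a call lost without control replicate 1 (limma adjusted p = 0.057).

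Genes of the DNA replication machinery moved the same way as these. Of 31 listed, 29 rose and none fell, against 36.1% and 30.3% of all genes tested. Their median difference was 0.40, and Gins4 and Pola2 did not pass. Pola1, the catalytic subunit of DNA polymerase alpha, rose from 5.73 to 11.8 RPKM (0.92), and Prim2, a primase subunit, from 5.76 to 10.2 RPKM (0.73). Mcm2 and Mcm4, of the replicative helicase, rose from 21.5 to 35.2 RPKM and from 21.9 to 35.6 RPKM (both 0.68), and Gins1 from 3.87 to 6.75 RPKM (0.67). How far a different share of replicating cells enters the values of the nucleotide synthesis genes was not tested.

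Among the 7 salvage genes, 2 rose, 1 fell and 4 did not pass, where 36.1% of all genes tested rose and 30.3% fell. Tk2, the mitochondrial thymidine kinase, stood at 2.52, 2.53 and 2.06 RPKM in control libraries and 5.24, 5.33 and 5.49 RPKM under low glutamine. Its low glutamine mean was 126% above the control mean, and the difference of 0.92 ± 0.07 (limma adjusted p = 1.1e-07) was the largest among the tested members. Tk1, the cytosolic thymidine kinase of S phase, rose from 20.2 to 22.5 RPKM (0.15, limma adjusted p = 0.029), a call lost without control replicate 1 or 3 (limma adjusted p = 0.098 and 0.069) or low glutamine replicate 1 or 3 (0.085 and 0.051). Uck1, a uridine-cytidine kinase, fell from 12.1 to 10.9 RPKM (-0.13, limma adjusted p = 0.046), a call that was lost without control replicate 1 or 2 (limma adjusted p = 0.091 and 0.19) or low glutamine replicate 1 or 2 (0.11 and 0.15), and after rescaling to a common sum (-0.01, 0.75). The others were the deoxycytidine kinase Dck (10.8 and 11.9 RPKM, limma adjusted p = 0.054) and the uridine-cytidine kinase Uck2 (56.6 and 61.6 RPKM, limma adjusted p = 0.067). The purine base enzymes were Hprt (84.6 and 87.9 RPKM, limma adjusted p = 0.40) and Aprt (61.0 and 57.5 RPKM, limma adjusted p = 0.35), both with overlapping groups. A missed threshold does not show that these levels were equal.

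Where an enzyme has isozymes or alternative subunits, their balance was compared in 9 pairs, as the share of the first gene in the summed RPKM of the pair. In 8 of 9 pairs the shares of the groups did not overlap, which was also so for the levels of 70.2% of all genes tested. The shares themselves were not tested: the test used the difference of log2(RPKM + 1) between the genes of a pair. An exact permutation test of 3 against 3 libraries cannot go below 0.1, so no pair could pass (two-sided, adjusted p = 0.1125 over the 9 pairs for each of the 8). Tk1 made up 89.5% ± 0.913 (SD, n = 3) of the thymidine kinase pair in control and 80.8% ± 0.428 (SD, n = 3) in low glutamine medium. Ctps made up 79.4% ± 0.988 of the CTP synthase pair in control and 74.7% ± 0.990 in low glutamine medium, the latter with the X-linked Ctps2 as partner. In both pairs the less abundant gene gained share.

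Rrm2 made up 96.4% ± 0.402 of the small subunit RNA in control and 94.4% ± 0.111 in low glutamine medium. Impdh1 made up 11.1% ± 0.389 of its pair in control and 9.15% ± 0.368 in low glutamine medium, and Uck1 17.6% ± 0.799 and 15.1% ± 0.282 of its pair. The balance moved towards the first-named gene in other cases: Nme1 went from 31.7% ± 0.294 to 35.6% ± 0.267, and Ak3 from 81.2% ± 0.411 to 84.0% ± 0.522 although both Ak3 and Ak4 fell. Adss stayed near the whole of its pair, at 98.99% and 98.27%. The Prps1 share overlapped between the groups, at 31.4% ± 2.003 and 32.7% ± 0.931 (exact permutation p = 0.4 for the log2 difference of the pair). Transcript sequence that also occurs in other genes makes some of these shares uncertain. Such sequence makes up 67.6% of the 50-base stretches of Impdh2, 47.0% of Nme2, 20.8% of Uck1 and 17.2% of Rrm2b.

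**Figure D3:**
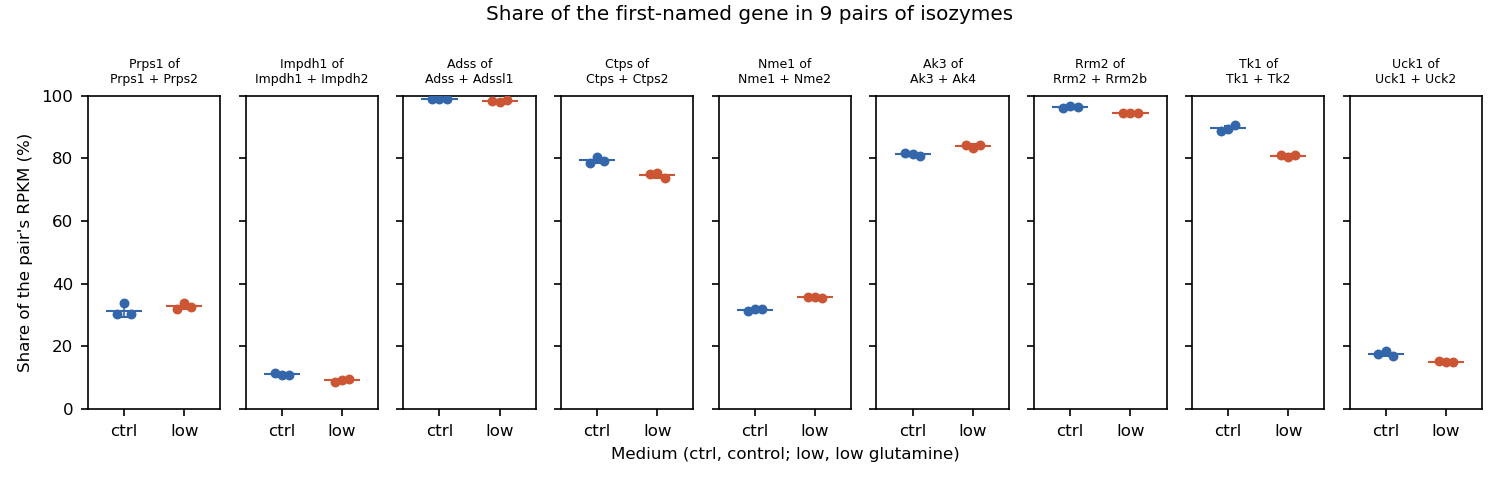
Share of the first-named gene in the summed RPKM of 9 pairs (vertical axis, percent), with 1 point per library, bars at the mean and error bars of 1 SD (n = 3 per medium). The Tk1 share falls from 89.5% to 80.8% and the Ctps share from 79.4% to 74.7%, while the Prps1 shares of the media overlap.

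Of 12 tested kinases and PRPP synthetase partners outside the member list, 5 rose and 4 fell, with a median of 0.02. Among all genes tested, 36.1% rose and 30.3% fell, which is the background for this list and those below. They include Prps1l3, which rose from 13.2 to 19.1 RPKM (0.50), and Nme4, a mitochondrial nucleoside diphosphate kinase, which rose from 12.5 to 16.9 RPKM (0.42). Of 22 tested genes for nucleotide breakdown and control of the deoxynucleotide pool, 7 rose and 9 fell, with a median of -0.08. Gda, the guanine deaminase, fell from 9.26 to 0.511 RPKM (-2.76) and was tested only because of its control level. Cda, the cytidine deaminase, fell from 50.7 to 32.2 RPKM (-0.64). Upp1, a uridine phosphorylase, fell from 5.59 to 2.99 RPKM (-0.72). The nucleotidase Nt5c3b rose from 5.41 to 10.8 RPKM (0.88), and Dctd, which deaminates dCMP to dUMP, from 5.37 to 8.85 RPKM (0.63).

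Nucleoside transporters pointed upward, with 4 of 5 tested rising, none falling and a median of 0.39. Slc28a2, a concentrative transporter that prefers purine nucleosides, measured 0.380, 0.517 and 0.259 RPKM in the control libraries, with 8.54, 8.15 and 8.53 RPKM under low glutamine (2.77, limma adjusted p = 8.4e-12). Slc29a4 rose from 1.27 to 3.45 RPKM (0.97), and the equilibrative transporter Slc29a1 from 19.3 to 25.5 RPKM (0.39). Slc29a3 rose from 7.17 to 7.93 RPKM (0.13, limma adjusted p = 0.0497). Slc28a2 passed the limit of 1 RPKM on the mean only through its low glutamine libraries, so its call and its place in the count rest partly on that limit. With a limit of 5 RPKM, 2 transporters were tested and 1 passed, and in 8 of the other alternatives 3 passed.

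The folate one-carbon genes, which supply formyl groups to Gart and Atic and the methyl group to Tyms, numbered 17, of which 9 rose and 3 fell, with a median of 0.27. Mthfd1l, the mitochondrial formate-producing enzyme, rose from 9.13 to 12.5 RPKM (0.42), and Fpgs, which retains folates in cells, from 5.43 to 7.78 RPKM (0.45). The 3 that fell were Aldh1l1 and Aldh1l2, which oxidise formyl folate, from 19.7 to 9.30 RPKM (-1.01) and from 7.53 to 4.08 RPKM (-0.75), and Slc46a1, the proton-coupled folate transporter, from 13.3 to 3.53 RPKM (-1.65).

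**Figure D4:**
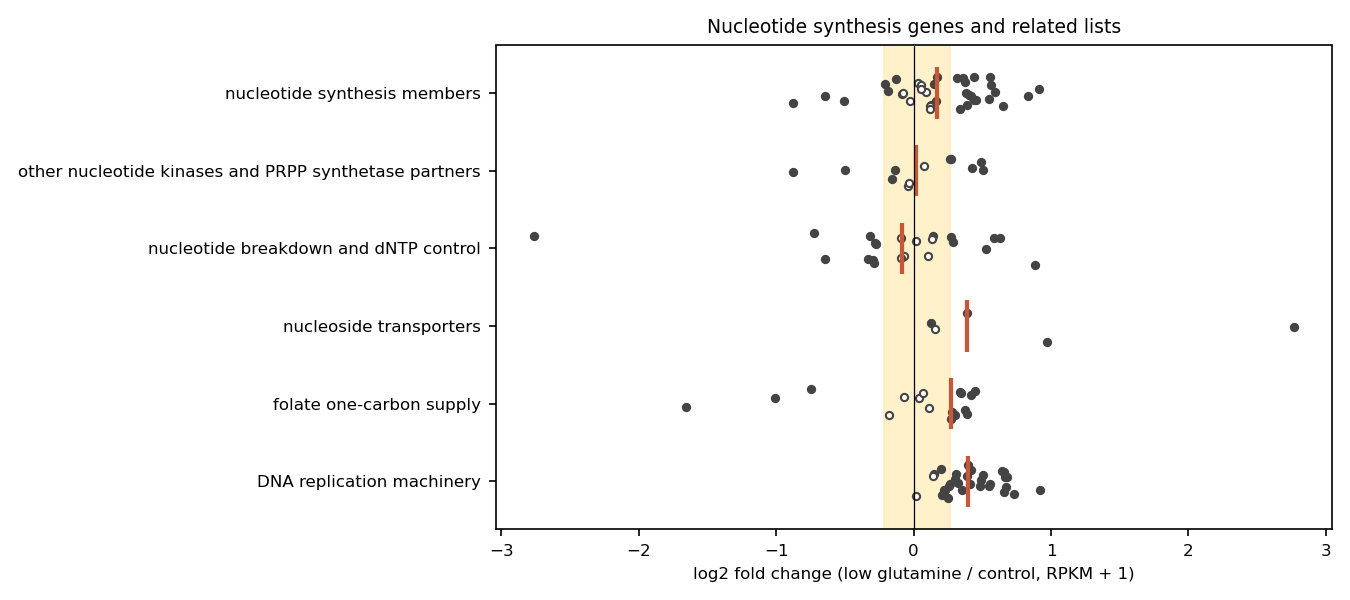
Log2 fold change of RPKM + 1 (low glutamine over control) for each tested member, in a single row, and for each tested gene of the surrounding lists. Filled points passed the limma test, open points did not, and a red bar marks each median. The median is 0.17 for the members and 0.40 for DNA replication, and the breakdown list (-0.08) spreads to both sides of 0.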

How the data were processed

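The deposited table holds RPKM values made by the authors, with a column per library and gene symbols as row names. Per the submitters' processing notes, the tools were CASAVA 1.8, Partek and HISAT2 2.0.4 and the genome mm10, with no order stated. Annotation, counting rule and strandedness are not given in the sources used here. RefSeq genes (GRCm38.p6) matched 24310 rows by symbol and 524 through a synonym, and 122 rows had no match. Depth was estimated from low values, of which 73.7% to 83.8% per library were whole reads within 0.02. RPKM values are not counts, so limma 3.58.1 (R 4.3.3) was fitted to log2(RPKM + 1), with a variance trend, on the 11082 rows with a mean of at least 1 RPKM. The test was two-sided, with Benjamini-Hochberg adjustment over all of them and a threshold of 0.05. Fold changes on this scale understate low genes. Tables and plots used Python 3.11.15, pandas 2.3.3, numpy 2.4.6 and matplotlib 3.10.9. The fit was tested on simulated data with no built-in difference in column sums between the groups, which does not bear on scaling.

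The members and lists were chosen with earlier results of these data known. Every member is given: per library for the 6 glutamine-using genes and for members past the threshold with no overlap and a difference of at least 0.3, otherwise by group mean. Up to 5 passing genes with the largest difference are named from each other list, except that some are not reported here. Ak1 by library and Slc28a2 by library were added after their values were seen. Shared 50-base stretches and exon overlaps were computed from GENCODE vM21 transcripts. The same-numbered libraries deviated together (r = 0.15, 0.25 and 0.57, all over 0.1), which met the rule for pairing, although control 2 with low glutamine 1 (r = 0.36) and control 1 with low glutamine 2 (r = 0.20) were over 0.1 too. What the shared numbers mean is not stated in the labels, and Xist and Eif2s3y differed within every same-numbered pair. Alternatives covered the pseudocount, the filter, scaling, the replicate block, the variance trend, autosomes alone and leaving out each library.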

Additional observations from a re-analysis of the deposited data

How the results depend on the processing

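Of 27 member calls, 21 held in every alternative in which the gene was tested, 15 to 17 of them (18 higher and 3 lower), among them all 6 glutamine-using genes and Ak3, Ak4 and Cmpk1. The calls of Impdh1, Adss, Uck1, Nme1, Tk1 and Dctpp1 did not. Some members that did not pass were called higher in alternatives: Adsl and Dck in 5 each, Uck2 in 4, Impdh2, Hprt and Guk1 in 3 each and Dhodh in 2. Nme2 was called lower in 2 and Aprt in 1. The replicate block, which takes the shared numbers as a pairing, changed no member call (21 higher and 6 lower). Rescaling to a common sum, and to a common sum without the ribosomal RNA precursor Rn45s, moved the median of all genes from 0.03 to 0.145 and 0.169, the split of all genes from 4001 higher and 3360 lower to 5689 and 2543 and to 6040 and 2385, the members to 30 and 31 higher and 3 lower in both, the other members from 15 to 24 and 25 higher and from 6 to 3 lower in both, and the falling genes of the other kinase list from 4 to 2 in both. In both rescalings 38 members were tested, because Ak1 passed the limit through its low glutamine libraries, and it counts as higher. Ak1 was also tested, and higher, without control replicate 1, 2 or 3. Quantile normalization gave 23 other members higher. With a limit of 5 RPKM, 2532 genes rose and 1 nucleoside transporter did. Leaving out 1 library gave 19 to 23 members higher and 3 to 7 lower, also 3 to 7 lower for the other members, with the 3 reached without low glutamine replicate 1 or 2. The other kinase list then had 2 to 4 lower, with 2 reached without control replicate 1 or low glutamine replicate 2. Signs reversed for 6 members. Under the common sum, the common sum without Rn45s and quantile normalization, Nme2 was at 0.04, 0.07 and 0.14 (limma adjusted p = 0.22, 0.044 and 0.0041), Rrm2 at 0.09, 0.12 and 0.10 (limma adjusted p = 0.042, 0.012 and 0.03) and Aprt at 0.05, 0.07 and 0.08. Uck1 was at 0.01 without Rn45s. Dhodh was at -0.0017 with median-of-ratios scaling, -0.02 with quantile normalization and, leaving out 1 library, between -0.02 (without low glutamine replicate 3) and 0.06. Guk1 was at -0.0022 without control replicate 3. The cause was not tested. Depth limits the members with low RPKM, such as Adssl1, Ak1, Rrm2b, Tk2 and Ctps2.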
